A study of Caenorhabditis elegans with 12 samples.

Results

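The glutathione and thioredoxin systems are the paired thiol systems that keep cysteines reduced in the cell. The transcripts of 10 of their genes were followed here through 12 RNA-seq libraries of whole Caenorhabditis elegans worms. The genes were chosen by their names and functions, with earlier results of these data known, and all 10 were found among the 46748 genes of the deposited count table. Worms were hermaphrodites of N2, the wild-type strain, so that no group carried a mutation or a transgene. They were either controls given 0.1% dimethyl sulfoxide (DMSO), a solvent, or worms given 100 nM rotenone. That exposure began at L4, the final larval stage, and lasted 24 h only. Rotenone blocks complex I of the mitochondrial respiratory chain. Each treatment was sampled at 5 and at 15 days of age, with 3 libraries per group. The labels do not state from when age was counted, how long DMSO was given, whether rotenone worms received solvent, or whether replicates were separate cultures. If they were not, p-values cover technical spread alone.

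Glutathione is a tripeptide made in a pair of steps, by glutamate-cysteine ligase and then by glutathione synthetase. Peroxidases oxidise it while they reduce hydrogen peroxide and lipid peroxides, and a reductase returns it to the reduced form with electrons from NADPH. Thioredoxins are small proteins that reduce disulfides in other proteins, among them methionine sulfoxide reductases, and are themselves recharged from NADPH by thioredoxin reductases. In worms the transcription factor SKN-1, the counterpart of mammalian NRF2, drives gcs-1 under oxidative stress, and gcs-1 is a common reporter of its activity.

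Total counts ran from 34307432 to 53716605 per library, and over the 12 libraries the members drew from 301 counts (trx-1) to 114359 counts (trxr-1). All 10 passed the filter on low counts that 17166 genes passed. Levels are given as CPM, each count divided by its library total and scaled with TMM factors, and differences as log2 differences ± the standard error of an edgeR quasi-likelihood fit over all 17166 genes. A difference was called where its p-value, adjusted over all those genes, was under 0.05. The samples were whole animals, in which fewer cells of a type and less RNA per cell cannot be told apart. As markers of the tissues of a whole worm, genes of intestine, muscle, epidermis, neurons, germline, sperm and embryos were read. The summed level of 8 intestine markers was 5705 to 6134 CPM in DMSO and 3692 to 4066 CPM after rotenone at 5 days, and 671 to 720 CPM and 656 to 727 CPM at 15 days. Most of the 5-day shift lay in 2 protease genes, asp-1 (3077 to 1824 CPM) and cpr-1 (2223 to 1445 CPM), singled out after their values were seen, while the list had a median log2 difference of -0.16 with 4 of 8 genes lower and none higher (4 lower and 3 higher with library totals). At 5 days the 8 muscle markers summed to 1817 to 1978 CPM in DMSO and 1519 to 1545 CPM after rotenone, with 5 lower and 1 higher. The 7 epidermis markers summed to 551 to 595 CPM and 488 to 508 CPM, with 2 lower and 2 higher (1 lower and 3 higher with library totals). The 10 neuron markers summed to 652 to 678 CPM and 705 to 714 CPM, with 4 higher and none lower (10 higher with library totals). For rotenone at 5 days 21.3% of all tested genes were called higher and 23.3% lower. With age in DMSO all 8 intestine markers, all 8 muscle markers and 9 of 10 neuron markers fell, beside 40.9% of all tested genes. Of 7 epidermis markers 3 rose and 3 fell, and of 8 embryo markers 2 rose and 5 fell, where 35.2% of all genes rose. The epidermis markers summed to 300 to 302 CPM in DMSO at 15 days, below their sum at 5 days. The 8 embryo markers summed to 70.7 to 76.6 CPM in DMSO and 91.2 to 93.7 CPM after rotenone at 5 days, and to 44.1 to 50.7 CPM and 49.1 to 49.7 CPM at 15 days. The 10 germline and oocyte markers summed to 8475 to 9031 CPM over all 12 libraries. For rotenone at 5 days 3 of them were lower and none higher (2 lower and 6 higher with library totals). With age in DMSO 3 rose and 3 fell. The 8 sperm markers summed to 4.28 to 5.08 CPM in DMSO at 5 days and 6.57 to 9.32 CPM at 15 days. Of the 6 tested, 4 rose and 1 fell with age in DMSO, and 1 rose and 1 fell for rotenone at 5 days. The part of these shifts in the results below was not tested.

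Per length of transcript, the mitochondrial thioredoxin trx-2 (WBGene00007099, chromosome V, 10314671 to 10315294) had the highest level of the 10 in DMSO at 5 days. It stood at 117 ± 4.9 CPM per kb of exon (SD, n = 3). Next came the glutathione reductase gsr-1 (WBGene00008117, chromosome III, 3650907 to 3652958) at 91.4 ± 3.68 CPM per kb. The cytosolic thioredoxin reductase trxr-1 (WBGene00015553, chromosome IV, 7011954 to 7016586), the only selenoprotein known in the worm, stood at 82.8 ± 3.53 CPM per kb. msra-1 at 64.1 CPM per kb, gcs-1 at 62.2 and gpx-2 at 59.1 followed as neighbours whose libraries overlapped. gss-1 was at 41.3 CPM per kb, and 3 genes were far lower, with trxr-2 at 9.94, gpx-3 at 4.62 and trx-1 at 0.794 CPM per kb. By 15 days the order had changed in DMSO, with gsr-1 first at 107 ± 2.45 CPM per kb, trx-2 at 101 ± 3 and msra-1 down at 15.2 ± 1.46, where it overlapped trxr-2 at 14 ± 0.392.

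**Figure D1:**
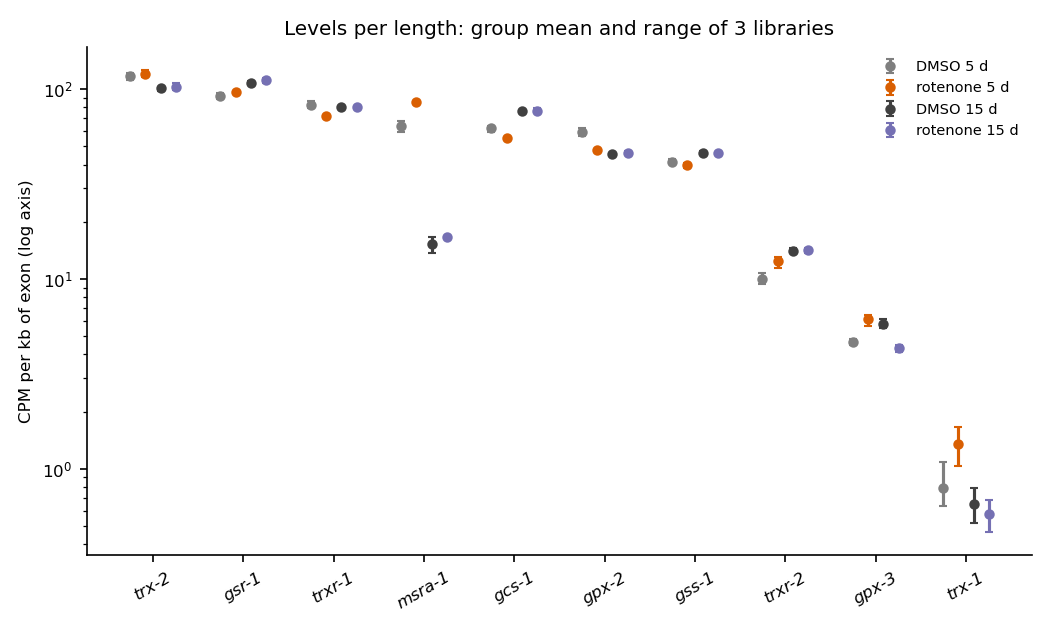
Mean CPM per kb of exon (log axis) of the 10 genes in the 4 groups, with bars from the lowest to the highest of 3 libraries. Of the 10 genes, msra-1 drops furthest between ages, from 64.1 to 15.2 CPM per kb in DMSO, while trx-1 is the lowest in each group.

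The first comparison asked what differed at 5 days in worms exposed to rotenone at L4. Of the 10 genes, 4 rose (trx-1, trxr-2, msra-1 and gpx-3) and 3 fell (gcs-1, trxr-1 and gpx-2), beside 44.7% of all tested genes called in either direction, 21.3% higher and 23.3% lower. The groups did not overlap in 6 of the 10, beside 54.3% of all tested genes. The median log2 difference of the 10 was 0.06, and that of all tested genes 0.03. The enzymes of synthesis, of peroxide removal and of thioredoxin recharging each held members that moved in different directions or did not pass.

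**Figure D2:**
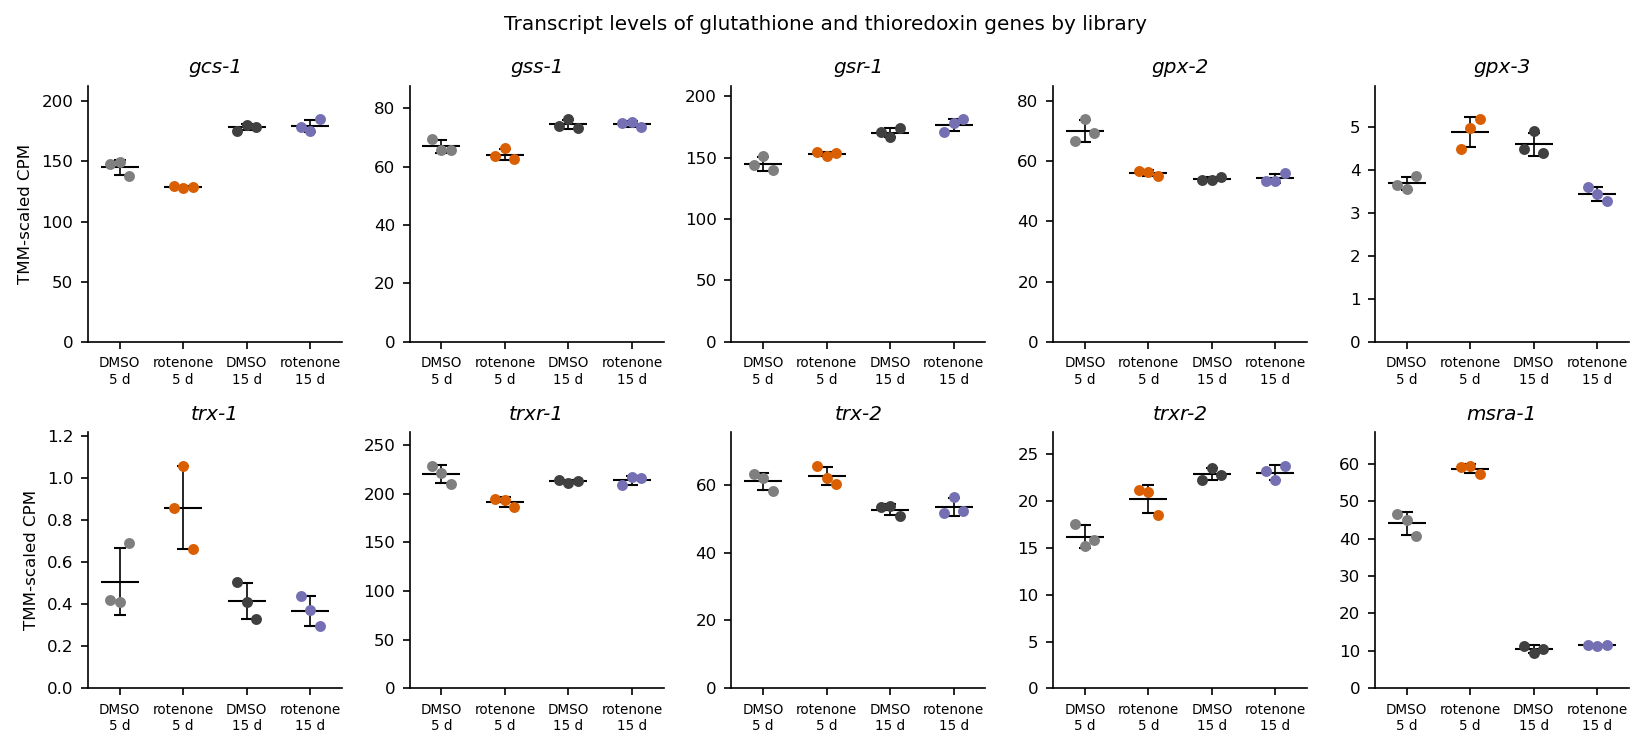
TMM-scaled CPM of each gene in every library (points), with the mean (line) and SD (bars) of 3 libraries per group and an axis from 0. At 5 days msra-1, trxr-2 and gpx-3 are higher after rotenone and gcs-1, trxr-1 and gpx-2 lower, and at 15 days gpx-3 is lower after rotenone, with 3.27 to 3.59 CPM beside 4.4 to 4.89 CPM in DMSO.

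In glutathione synthesis the first step fell slightly and the second did not pass. gcs-1 (WBGene00001527, chromosome II, 9035562 to 9038301) encodes the catalytic subunit of glutamate-cysteine ligase. Its level was 148, 150 and 138 CPM in the DMSO libraries and 130, 128 and 128 CPM after rotenone. Each rotenone library lay below each DMSO library, at a log2 difference of -0.17 ± 0.03 (adjusted p = 0.000163). gss-1 (WBGene00010941, chromosome II, 9414563 to 9416431), the glutathione synthetase, read 69.5, 65.7 and 65.7 CPM in DMSO and 63.6, 66.4 and 62.5 CPM after rotenone. These overlapped, at a log2 difference of -0.06 ± 0.03 (adjusted p = 0.153, 95% interval -0.13 to 0.01). gsr-1, which reduces glutathione disulfide in cytosol and mitochondria, had 144, 151 and 140 CPM beside 154, 151 and 154 CPM. It narrowly missed the threshold at 0.08 ± 0.03 (adjusted p = 0.053, 95% interval 0.01 to 0.14).

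The glutathione peroxidases differed in direction. gpx-2 (WBGene00011045, chromosome II, 14866766 to 14869671) fell from 66.6, 73.9 and 69.3 CPM in DMSO to 56.9, 56.3 and 55.1 CPM after rotenone. This was a 1.25-fold lower level, with no overlap between the groups (log2 difference -0.32 ± 0.04, adjusted p = 1.16e-06). gpx-3 (WBGene00007517, chromosome X, 9587942 to 9588879), a peroxidase gene read at a much lower level, rose from 3.65, 3.56 and 3.85 CPM to 4.48, 4.98 and 5.17 CPM. All 3 rotenone libraries were above the DMSO libraries, at 1.32-fold (log2 difference 0.40 ± 0.08, adjusted p = 0.000573).

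The thioredoxin reductases also parted. The cytosolic trxr-1 fell from 229, 221 and 210 CPM to 195, 194 and 186 CPM (log2 difference -0.20 ± 0.03, adjusted p = 3.35e-05). The mitochondrial trxr-2 (WBGene00014028, chromosome III, 8913769 to 8916459) rose from 17.6, 15.2 and 15.8 CPM to 21.2, 21 and 18.5 CPM (log2 difference 0.32 ± 0.06, adjusted p = 0.000159). In neither gene did the groups overlap, but the lowest rotenone library of trxr-2 was within 1 CPM of the highest DMSO library. trx-2, whose product trxr-2 recharges in mitochondria, was at 63.1, 61.9 and 58.2 CPM beside 65.6, 61.9 and 60.4 CPM and did not pass (0.04 ± 0.04, adjusted p = 0.513, 95% interval -0.05 to 0.13). trx-1 (WBGene00015062, chromosome II, 7752637 to 7753600) is a thioredoxin known chiefly from the ASJ pair of sensory neurons, and it was read at 18, 21 and 32 counts in DMSO and 45, 51 and 34 counts after rotenone. Its level was 0.421, 0.408 and 0.692 CPM beside 0.858, 1.06 and 0.663 CPM, and the groups overlapped. The call at 0.76 ± 0.24 (adjusted p = 0.0168) was lost without DMSO replicate 1 (0.66, adjusted p = 0.065), DMSO replicate 2 (0.61, adjusted p = 0.087) or rotenone replicate 2 (0.59, adjusted p = 0.095), and with DESeq2 (adjusted p = 0.065). Of 6 markers of ASJ neurons, the sulfotransferase ssu-1 was called higher (0.82 ± 0.27) and none lower (3 higher with library totals). The level of ssu-1 was itself low, at 0.322 CPM in DMSO and 0.58 CPM after rotenone. The list summed to 15.1 to 17.4 CPM in DMSO and 16.6 to 17.3 CPM after rotenone. Its part in the trx-1 difference was not tested.

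msra-1 (WBGene00018393, chromosome II, 7363220 to 7364040) encodes the reductase that returns oxidised methionine to methionine. Its level was 46.6, 45 and 40.7 CPM in DMSO and 59.2, 59.4 and 57.2 CPM after rotenone. The rotenone libraries were all higher, by 1.33-fold (log2 difference 0.41 ± 0.05, adjusted p = 1.28e-06).

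The smaller falls at 5 days depended on scaling. Using library totals in place of TMM factors moves the median of all genes up by 0.12, and with them gcs-1 (-0.05, adjusted p = 0.177) and trxr-1 (-0.08, adjusted p = 0.0515) no longer pass while gsr-1 (0.20) and trx-2 (0.16) do. The calls of gpx-2, gpx-3, msra-1 and trxr-2 held in all 12 alternatives run for each.

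The second comparison asked what was left at 15 days. Of the 10 genes none rose and 1 fell, gpx-3, beside 0.408% of all tested genes called, 0.28% higher and 0.128% lower. The groups did not overlap in gpx-3 alone, beside 11.1% of all tested genes. gpx-3 stood at 4.48, 4.89 and 4.4 CPM in DMSO and 3.59, 3.45 and 3.27 CPM after rotenone, so that the order of the groups at 5 days was turned. The log2 difference of -0.41 ± 0.09 was at the threshold (adjusted p = 0.0497). It lost the call without any 1 of the 6 libraries (-0.44 to -0.36, adjusted p = 0.0816 to 0.206), with RLE factors (adjusted p = 0.0514), with lane as a block (adjusted p = 0.0563), with DESeq2 (adjusted p = 0.117) and with the pair of groups alone (adjusted p = 0.136).

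The other 9 genes did not pass at 15 days. gcs-1 read 175, 181 and 179 CPM in DMSO and 178, 176 and 185 CPM after rotenone, at a log2 difference of 0.01 ± 0.03 with a 95% interval of -0.05 to 0.07. gpx-2 read 53.7, 53.8 and 54.7 CPM beside 53.5, 53.3 and 55.9 CPM, with an interval of -0.08 to 0.08. The intervals of gss-1, gsr-1, trx-2, trxr-1 and trxr-2 lay between -0.10 and 0.13. msra-1 was at 11.4, 9.42 and 10.6 CPM beside 11.3 to 11.6 CPM, overlapping, at 0.12 ± 0.07 (adjusted p = 0.744, interval -0.02 to 0.27). trx-1, with 12 to 23 counts a library, had the widest interval of the 10, from -0.79 to 0.52.

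**Figure D3:**
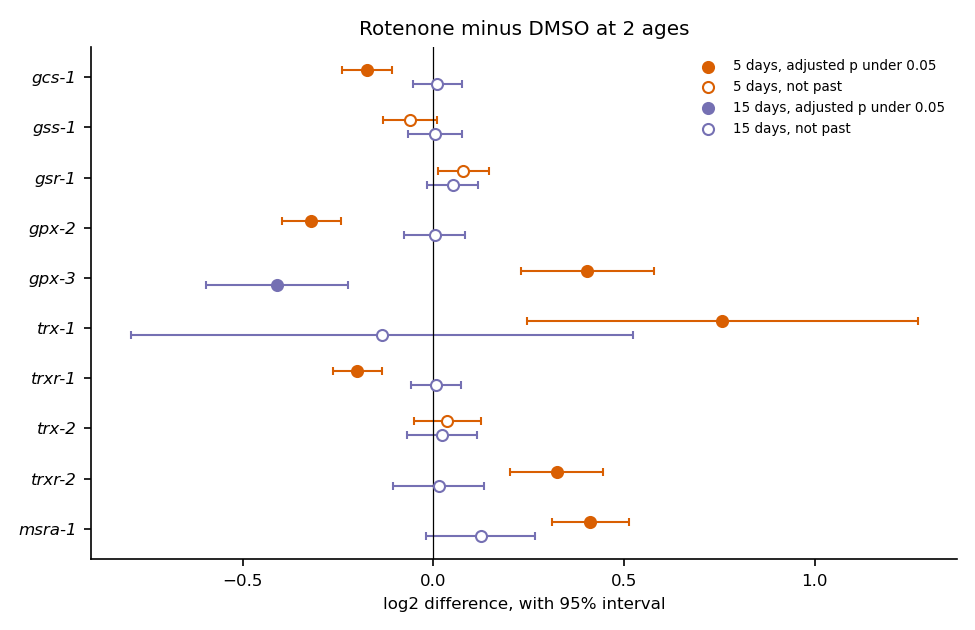
Log2 difference of rotenone minus DMSO at 5 days (orange) and 15 days (violet) for each gene, with 95% intervals. Filled points passed an adjusted p of 0.05, and gpx-3 sits at 0.40 at 5 days and at -0.41 at 15 days.

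Whether the rotenone difference itself changed between ages was tested as an interaction. It passed in 6 of the 10 genes, beside 25.7% of all tested genes, with 3 higher and 3 lower at 15 days, beside 15.4% and 10.3% of all. gpx-3 had the largest called difference of the 10, -0.81 ± 0.12 (adjusted p = 8.91e-05), and kept its call in all 17 alternatives. The interaction was 0.32 ± 0.05 in gpx-2, 0.21 ± 0.04 in trxr-1 and 0.18 ± 0.04 in gcs-1, the genes that were lower after rotenone at 5 days. It was -0.31 ± 0.08 in trxr-2 and -0.29 ± 0.08 in msra-1, which were higher at 5 days. With library totals trxr-1 (0.07) and gcs-1 (0.05) did not pass, and msra-1 did not pass without DMSO 15-day replicate 1 (-0.22, adjusted p = 0.067). gss-1, gsr-1, trx-1 and trx-2 did not pass (adjusted p = 0.112 to 0.899), but gsr-1 did with library totals (-0.16, adjusted p = 0.00745), and trx-1 did without DMSO 5-day replicate 3 (-1.18, adjusted p = 0.0397).

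The third comparison followed age from 5 to 15 days. In DMSO 5 genes rose and 3 fell, beside 76.2% of all tested genes called, 35.2% higher and 40.9% lower. In rotenone worms 5 rose and 4 fell, beside 79.5%, with 36.6% higher and 42.9% lower. Both comparisons therefore called the members about as often as genes at large. The groups did not overlap in 8 of the 10 genes in DMSO, beside 77% of all tested genes, and in 9 after rotenone, beside 81.3%. The median of the 10 was 0.05 in DMSO and 0.06 after rotenone, where all genes had -0.06 and -0.09.

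msra-1 had the largest change with age. Its level fell from 40.7 to 46.6 CPM at 5 days to 9.42 to 11.4 CPM at 15 days in DMSO, a 4.19-fold lower level (log2 difference -2.07 ± 0.06, adjusted p = 8.97e-17). After rotenone it fell 5.11-fold, from 57.2 to 59.4 CPM to 11.3 to 11.6 CPM (-2.35 ± 0.06). The other genes moved by less than 1 on the log2 scale in DMSO.

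Of the genes for glutathione synthesis and reduction, the 3 members rose with age in both treatments. gcs-1 rose by 0.30 ± 0.03 in DMSO and by 0.48 ± 0.03 after rotenone, gss-1 by 0.15 ± 0.03 and 0.22 ± 0.03, and gsr-1 by 0.23 ± 0.03 and 0.21 ± 0.03. None of these 3 genes had overlapping ages in either treatment, and all 6 calls held in the 12 alternatives run for each.

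The mitochondrial thioredoxin genes went in different directions. trxr-2 rose by 0.50 ± 0.06 in DMSO, to 22.3, 23.6 and 22.8 CPM, and by 0.19 ± 0.06 after rotenone (0.09 with library totals, adjusted p = 0.189). trx-2 fell in DMSO (-0.21 ± 0.04, adjusted p = 0.000169), to 53.5, 53.6 and 50.8 CPM, and was at -0.23 ± 0.04 after rotenone. The cytosolic trxr-1 did not pass in DMSO (-0.05 ± 0.03, adjusted p = 0.175, and 0.01 with RLE factors), where it stood at 215, 211 and 213 CPM at 15 days. It passed there in 2 of the 12 alternatives, which ran from -0.09 to 0.01. After rotenone trxr-1 was higher by 0.16 ± 0.03 at 15 than at 5 days, or by 0.06 with library totals, which did not pass (adjusted p = 0.114).

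The peroxidases aged unlike each other and unlike between treatments, as the interaction above states. gpx-2 fell in DMSO (-0.37 ± 0.04, adjusted p = 2.46e-08) and did not pass after rotenone (-0.05 ± 0.04, adjusted p = 0.241), though it did with library totals (-0.15, adjusted p = 0.000997) and was at 0.04 with RLE factors. gpx-3 rose in DMSO (0.31 ± 0.09, adjusted p = 0.00319) and fell after rotenone (-0.50 ± 0.08, adjusted p = 2.25e-05). trx-1 was at -0.30 ± 0.29 in DMSO, which did not pass, and fell after rotenone (-1.19 ± 0.26, adjusted p = 0.000394), from 0.663 to 1.06 CPM down to 0.297 to 0.439 CPM.

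**Figure D4:**
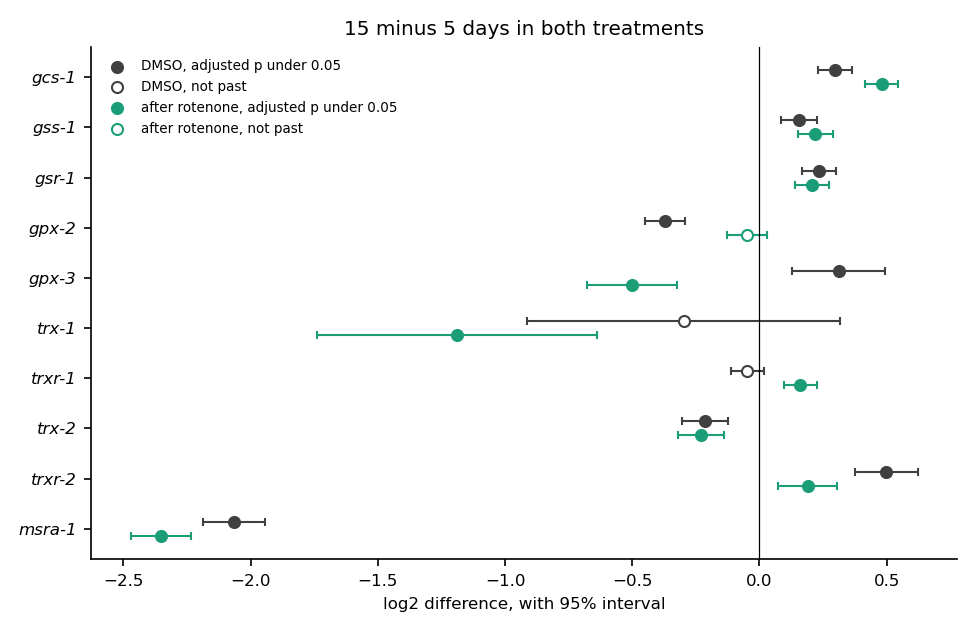
Log2 difference of 15 minus 5 days in DMSO (black) and after rotenone (green), with 95% intervals and filled points past an adjusted p of 0.05. msra-1 lies at -2.07 and -2.35, and gpx-3 is the member called in opposite directions, at 0.31 and -0.50.

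Around the 10 genes, 9 lists of functionally linked genes were read in the same fit, and their counts stand beside the shares of all tested genes given above. Among genes of glutathione synthesis, breakdown and transsulfuration, the route from methionine to cysteine, 8 of 16 tested genes rose and 2 fell after rotenone at 5 days (median 0.15). cysl-2, a cyanoalanine synthase that went from 43 to 85.9 CPM, and cysl-1 (0.37 ± 0.03), a sulfide-sensing relative, led the rises. cth-2 (-0.14 ± 0.05), a cystathionine gamma-lyase, and E01A2.1 (-0.10 ± 0.03), homologous to the human modifier subunit of glutamate-cysteine ligase, were the falls. The latter fell as the catalytic gcs-1 did, and with library totals no gene of the list fell and 11 rose. At 15 days cysl-2 (0.38 ± 0.06) and cysl-1 (0.22 ± 0.04) were still higher after rotenone, the 2 genes of the list that passed (1 with library totals). With age in DMSO 11 genes of this list fell and 3 rose (median -0.74), cth-2 from 406 to 93.5 CPM, beside 40.9% of all tested genes lower. E01A2.1 did not pass (-0.02 ± 0.03, adjusted p = 0.501).

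Of 6 other glutathione peroxidase genes, gpx-7 rose (0.47 ± 0.09) and gpx-5 (-0.31 ± 0.05) and gpx-1 (-0.26 ± 0.06) fell after rotenone at 5 days (2 rose and 1 fell with library totals), and none passed at 15 days. In DMSO 5 of the 6 fell with age and none rose, beside 40.9% lower and 35.2% higher among all tested genes, with gpx-7 at 5.91 CPM at 5 days and 0.745 CPM at 15 days (-3.01 ± 0.15).

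Of 8 tested thioredoxin-like genes, 3 rose and 2 fell at 5 days after rotenone (5 and 1 with library totals). Among all tested genes 21.3% were higher and 23.3% lower in that comparison. txdc-12.2 (0.34 ± 0.05) and txdc-12.1 (0.22 ± 0.06), homologues of a human thioredoxin-domain protein of the endoplasmic reticulum, rose, and png-1 (-0.25 ± 0.03), a glycanase with a thioredoxin domain, and trx-4 (-0.15 ± 0.04) fell. With age in DMSO 3 rose and 3 fell, led by trx-3, an intestinal thioredoxin, which went from 6.92 to 21.9 CPM (1.67 ± 0.08). Of 8 glutaredoxins and omega glutathione transferases, which use glutathione to reduce disulfides, glrx-10 (-0.22 ± 0.04) and glrx-3 (-0.10 ± 0.04) fell at 5 days after rotenone and none rose (1 rose and 1 fell with library totals). Of 7 tested genes for peroxiredoxins and other thiol repair, the sulfide oxidoreductase sqrd-1 rose (0.44 ± 0.05) and prdx-6 fell (-0.14 ± 0.04), and with library totals 4 rose and none fell.

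The list for NADPH, the electron donor of gsr-1, trxr-1 and trxr-2, also holds mthf-1, a reductase that uses NADPH. Of its 8 tested genes 2 rose and 3 fell at 5 days after rotenone, beside 21.3% and 23.3% of all tested genes. With library totals 5 rose and 2 fell, beside 6498 higher and 1774 lower of the 17166 tested genes. The 6-phosphogluconate dehydrogenase T25B9.9 (0.17 ± 0.03) and the cytosolic isocitrate dehydrogenase idh-1 (0.16 ± 0.03) rose, and the folate enzyme dao-3 (-0.59 ± 0.03) and the mitochondrial transhydrogenase nnt-1 (-0.44 ± 0.05) fell. With age in DMSO 2 rose and 6 fell, with dao-3 at -1.62 ± 0.03 and nnt-1 at -1.54 ± 0.05. Of 3 tested genes for selenocysteine insertion, which trxr-1 needs, none passed for rotenone at either age, and with age in DMSO secs-1 (0.61 ± 0.04) and pstk-1 (0.25 ± 0.09) rose and seld-1 (-0.22 ± 0.05) fell.

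SKN-1 transcripts fell as those of its target gcs-1 did at 5 days, from 408 to 360 CPM (-0.18 ± 0.03). With library totals neither gene was called lower. In the list of SKN-1 and its regulators 3 of 11 genes rose and 6 fell (5 and 0 with library totals), among them the kinases sek-1 (0.35 ± 0.04) and pmk-1 (0.27 ± 0.04), of a cascade that activates SKN-1. Of 8 other SKN-1 reporters, 5 rose and 1 fell (6 and 1 with library totals), beside 21.3% and 23.3% of all tested genes. The nitrilase nit-1 was at 1.09 ± 0.05, dhs-8 at 0.75 ± 0.09 and the glutathione S-transferase gst-10 at -0.89 ± 0.09. None of the SKN-1 regulators or reporters passed for rotenone at 15 days, and with age in DMSO 6 of the 8 reporters fell, gst-4 from 96.1 to 9.18 CPM, and 1 rose, beside 40.9% and 35.2% of all tested genes.

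**Figure D5:**
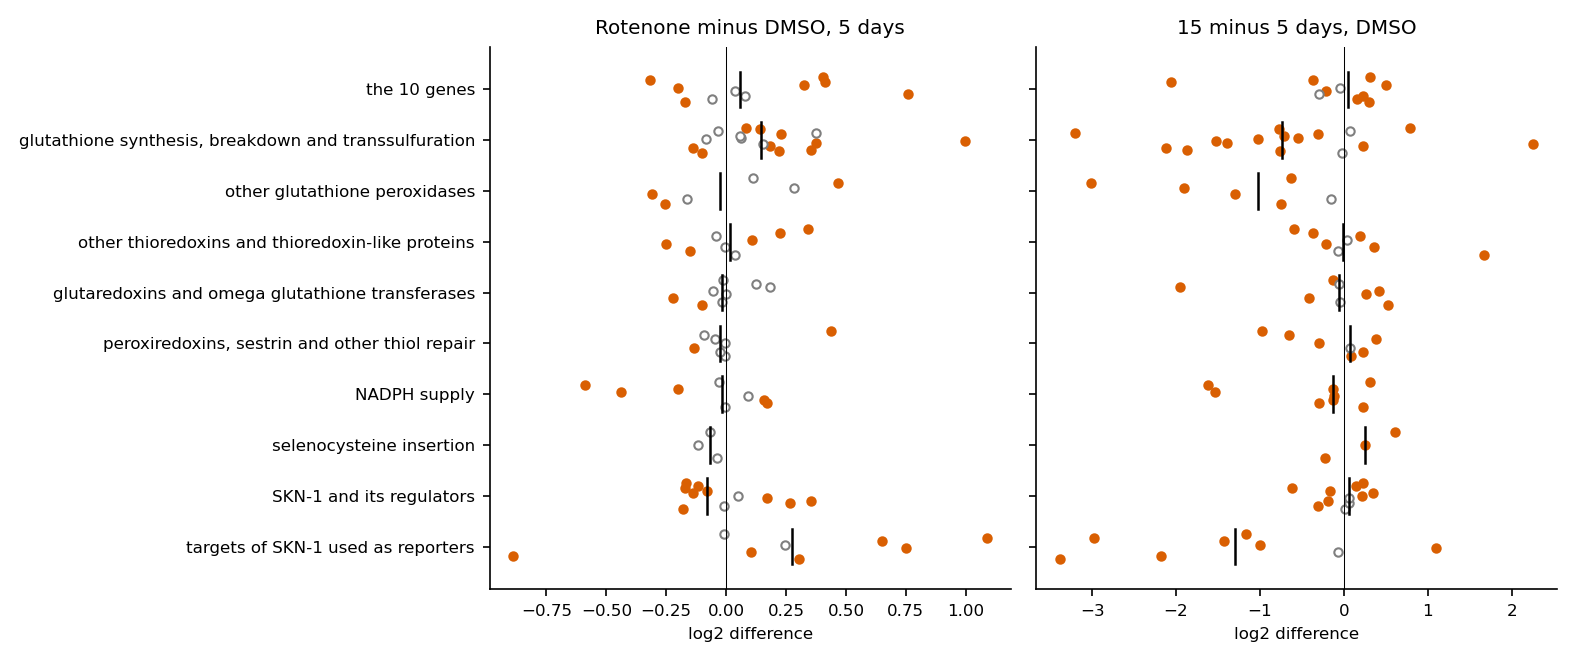
Log2 differences of the 10 genes and of 9 linked lists for rotenone at 5 days (left) and for age in DMSO (right), with 1 point per tested gene, filled orange where the adjusted p was under 0.05, and a bar at the median. The list medians run from -0.08 to 0.27 on the left. On the right they run from -1.30 (SKN-1 reporters) to 0.25 (selenocysteine insertion), with the peroxidase list at -1.02, beside 0.05 for the 10 genes.

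The genes most like a member in their course over the 12 libraries were sought for the 3 members with the widest range of group means, among 8155 tested genes with a mean of at least 10 CPM. The measure was the root-mean-square distance between log2 CPM values, each centred on the mean of its gene. The nearest to msra-1 were T14B1.1 (distance 0.0815), the UDP-glucuronosyltransferase ugt-13 (0.0836) and the saposin-like spp-18 (0.0897). ugt-13 went from 26.3 CPM in DMSO and 36.7 CPM after rotenone at 5 days to 6.98 and 7.38 CPM at 15 days. The nearest to trxr-2 were pan-1 (0.0418), the phosphatase vhp-1 (0.0518) and F48E8.3 (0.0575), and vhp-1 had 146, 178, 203 and 207 CPM in the 4 groups in the order DMSO and rotenone at 5 days, then at 15 days. Those nearest to trx-1, aagr-4, R193.2 and tag-10, were farther from it, at distances of 0.247 to 0.261. With 12 to 51 counts a library, trx-1 lay far below the 10 CPM asked of the genes it was compared with. The part of this depth in its distances was not tested.

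Exons of 5 members overlap a protein-coding gene on the opposite strand by 41 to 109 bases. The library kit named in the labels does not mark strand by its usual protocol, and how shared reads were counted is not stated. For trx-1 the neighbour cpna-2 was read at 101 and 104 CPM at 5 days in DMSO and rotenone, over 95 shared bases, and did not pass for rotenone (0.05, adjusted p = 0.397). With age cpna-2 fell, by log2 differences of -1.27 in DMSO and -1.31 after rotenone, where trx-1 was at -0.30 and -1.19. insc-1, which shares 41 bases with msra-1, was at 9.78 and 11.6 CPM at 5 days and 3.14 and 2.95 CPM at 15 days. Like msra-1 it was higher after rotenone at 5 days (0.25) and fell with age (-1.63 in DMSO and -1.97 after rotenone), and for rotenone at 15 days it did not pass (-0.10). cdc-25.3, beside trxr-2, was at 20 and 21.3 CPM at 5 days and did not pass for rotenone (0.09, adjusted p = 0.18). It rose with age by 0.35 in DMSO and by 0.23 after rotenone, where trxr-2 rose by 0.50 and 0.19. asps-1, beside trx-2, and C46F11.5, beside gsr-1, fell at 5 days after rotenone (log2 differences -0.24 and -0.17). The part of shared reads in the members' values was not tested.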

How the data were processed

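The authors deposited whole-number counts per gene, without normalization, for 12 libraries. The submitters' processing notes list, with no order, featureCounts 1.4.6-p4, STAR 2.4.1d, bcl2fastq 1.8.3 and build WBcel235. Settings, strand and annotation release are not given in the sources used here. A deposited RPKM table was not used. Symbols, positions and exon lengths came from Ensembl release 115 of WBcel235, which holds 46449 of the 46748 identifiers. A minimum count of 10 (filterByExpr) left 17166 genes, which were scaled with TMM factors and fitted with edgeR 4.0.16 (R 4.3.3) in 1 quasi-likelihood model of 4 groups, with 5 contrasts and Benjamini-Hochberg adjustment over those genes. The method was tested on simulated counts with the same spread for every gene and as many genes raised as lowered. Such counts cannot test the choice of scaling. Intervals are 95%. CPM per kb divides by the exon length of all isoforms together. The 10 members are all described. Most genes named from a list were among its 2 largest called rises or falls in a comparison, and not all of those were named. Not every list was described in every comparison. For the 3 members of widest range the 3 most alike genes were named. The members and lists were chosen with earlier results of these data known. Of 145 listed symbols 3 matched no gene. Labels place each replicate number in 1 of 3 sequencing lanes. Deviations of libraries sharing a lane correlated at -0.05 to 0.18 (median 0.02, 18 pairs). Those of libraries in different lanes correlated at -0.19 to 0.12 (median -0.004, 36 pairs). Alternatives were RLE factors, library totals, no filter, DESeq2 1.42.0, lane as a block, the compared groups alone, and leaving out each library.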

Additional observations from a re-analysis of the deposited data

Results flagged for a closer look

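In 6 genes the rotenone difference changed between 5 and 15 days, by the interaction test of the edgeR fit (log2 difference at 15 days minus that at 5 days). It was higher at 15 days in gpx-2 (0.32, adjusted p = 0.00021), trxr-1 (0.21, adjusted p = 0.0019) and gcs-1 (0.18, adjusted p = 0.00464). It was lower at 15 days in gpx-3 (-0.81, adjusted p = 8.91e-05), trxr-2 (-0.31, adjusted p = 0.0087) and msra-1 (-0.29, adjusted p = 0.0162). With library totals gcs-1 (0.05, adjusted p = 0.439) and trxr-1 (0.07, adjusted p = 0.26) did not pass. With a single library left out msra-1 did not pass (-0.22, adjusted p = 0.067). In gpx-3 the rotenone libraries lay above all DMSO libraries at 5 days and below all of them at 15 days, with 132 to 265 counts a library. Groups of 3 libraries are too small for a search for outlying samples.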

How the results depend on the processing

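Of 50 member differences 31 were called. None of the 31 reversed under any alternative, and 22 passed under each one run for them. With library totals, 1 member in place of 3 was lower after rotenone at 5 days, 3 in place of 5 rose with age after rotenone, and 1 in place of 3 had a higher interaction. They shift the median of all genes by 0.12 at 5 days and -0.13 in the interaction, and turn the split of higher and lower calls from 3662 and 4006 to 6498 and 1774, and from 2643 and 1776 to 940 and 4295 (3131 and 1446 with RLE factors). At 15 days the 1 member lower after rotenone became 0 with RLE factors, the lane block, the compared groups alone, DESeq2 and each left-out library. The 70 genes called there became 322 without a filter, 118 with the lane as a replicate block, 45 with the compared groups alone, and 31 to 77 with a library left out. The block changed no other call of a member; labels tie replicate numbers to lanes, not to cultures. With a library left out the members called higher and lower at 5 days were 3 to 4 and 3, and in the interaction 3 and 2 to 4.

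Differences that reversed were not called. With library totals these were gss-1 at 0.059 for rotenone at 5 days, gcs-1 (-0.0039), gss-1 (-0.0098), trxr-1 (-0.0075) and gpx-2 (-0.0101) at 15 days, and gss-1 (-0.069) in the interaction. With RLE factors and with DESeq2 they were trxr-1 (0.015 and 0.015) with age in DMSO, gpx-2 (0.0404 and 0.0403) with age after rotenone and trx-2 (0.013 and 0.013) in the interaction. With a library left out, the rotenone difference at 15 days ran from -0.0069 to 0.029 in gcs-1, -0.0024 to 0.023 in gss-1, -0.29 to 0.0395 in trx-1, -0.014 to 0.053 in trx-2, -0.00035 to 0.0295 in trxr-1, -0.00299 to 0.041 in trxr-2 and -0.014 to 0.018 in gpx-2. The interaction ran from -0.054 to 0.00086 in gsr-1 and -0.0502 to 0.021 in trx-2. The cause of these shifts was not tested. Depth limits trx-1 most, with 12 to 51 counts a library.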
